A study of Homo sapiens with 6 samples.

Results

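The NF-κB core set comprised 10 genes, picked by symbol from a table of 22152: the canonical members NFKB1, RELA and IKBKB, the noncanonical members NFKB2, RELB, MAP3K14 and CHUK, and the feedback inhibitors NFKBIA, NFKBIE and TNFAIP3. They were measured by RNA-seq in HaCaT cells, a spontaneously immortalized human keratinocyte (KC) line, transfected either with a synthetic miR-21-3p mimic or with a negative control (NC) mimic. Both mimics were given at 1 nM, polyadenylated RNA was taken 48 h later, and each group had 3 biological replicates. The question was whether raising miR-21-3p, the passenger strand of the miR-21 duplex, alters transcript levels in KCs, and the labels describe no stimulus besides the transfection. Values are the read counts per gene that the authors scaled to a common library size, called normalised counts here. The whole reads recovered from them, with high values known only to the rounding of the table, summed to about 24402657, 24529318 and 26171126 in NC replicates 1, 2 and 3 and to 24808743, 24974327 and 27989265 in the mimic replicates. KRT5, a keratin of basal KCs, lay between 123000 and 139000 normalised counts in the 6 libraries, and all 10 KC markers searched for were detected. Of these markers 1 rose and 1 fell, against 6.15% and 4.67% of all genes tested. KRT6A, a keratin of activated KCs, had a log2 fold change of 0.34 (limma adjusted p = 0.0020) and ITGB4, a hemidesmosome integrin, of -0.26 (limma adjusted p = 0.038). The groups overlapped in ITGB4, and no KC marker was called lower without NC replicate 1, NC replicate 3, mimic replicate 1 or mimic replicate 3. The part of these markers in the values of the NF-κB genes was not tested.

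NF-κB factors are dimers of Rel-family proteins that wait in the cytoplasm until a kinase releases them. In the canonical route, cytokine and Toll-like receptors activate the IKK complex, which marks IκB inhibitors for destruction by the proteasome and frees dimers such as NFKB1 with RELA. In the noncanonical route, the kinase MAP3K14 (NIK) accumulates, activates CHUK (IKKα) and triggers processing of the NFKB2 precursor, so that its product enters the nucleus with RELB, while in both routes released factors switch on genes of their own inhibitors, and in skin the pathway drives cytokine and antimicrobial genes of KCs.

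None of the 10 genes passed the threshold, a limma adjusted p under 0.05 over the 14782 genes tested, whereas 1600 of all genes tested (10.8%) did. The nearest to it was CHUK, 14% higher with the mimic, with an adjusted p of 0.051. At an unadjusted limma p under 0.05 there were 3 of 10 members (IKBKB, CHUK and NFKBIE), against 28.5% of all genes tested. In the same 3 genes the groups did not overlap, CHUK and NFKBIE lying higher with the mimic and IKBKB lower, against 31.3% of all genes tested, so the members' shares were close to those of genes at large. The edgeR quasi-likelihood test on the recovered reads and DESeq2 also called 0 of the 10. In bulk RNA, fewer transcripts per cell and a smaller share of cells with the transcript cannot be told apart.

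The members' levels per length differed far more between genes than any of them did between groups. Divided by the kilobases of each gene's merged exons, the mean level over the 6 libraries was 671 normalised counts per kb for NFKBIA, 385 for RELA, 332 for NFKB2, 187 for MAP3K14 and 152 for IKBKB. It was 131 normalised counts per kb for NFKB1, 129 for CHUK, 105 for NFKBIE, 66.9 for TNFAIP3 and 36.1 for RELB. Each gene in this order lay above the next within all 6 libraries, except NFKB1 and CHUK, where NFKB1 was the higher in 2 of 6. Both of these were NC libraries (replicates 2 and 3). The means of NFKB1 and CHUK were 128 and 121 normalised counts per kb in NC and 133 and 137 with the mimic. Across libraries the ranges of RELA and NFKB2, of MAP3K14 and IKBKB, of NFKB1 and CHUK, and of CHUK and NFKBIE overlapped, but within a library RELA exceeded NFKB2 by 47.5 to 63.0 normalised counts per kb, MAP3K14 exceeded IKBKB by 14.1 to 52.0 and CHUK exceeded NFKBIE by 9.01 to 36.3. IKBKB exceeded NFKB1 by 8.08 to 57.2 normalised counts per kb within a library, so of these neighbours NFKB1 and CHUK alone had no steady order. NFKBIA, the first-line IκB inhibitor, was thus at the top of the 10 genes per length in all 6 libraries and RELB at the bottom. The merged exons count every annotated isoform, which lowers the level of any gene with long minor isoforms. IKBKB had 11.2 kb of merged exons, and which isoforms were in use was not tested.

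**Figure D1:**
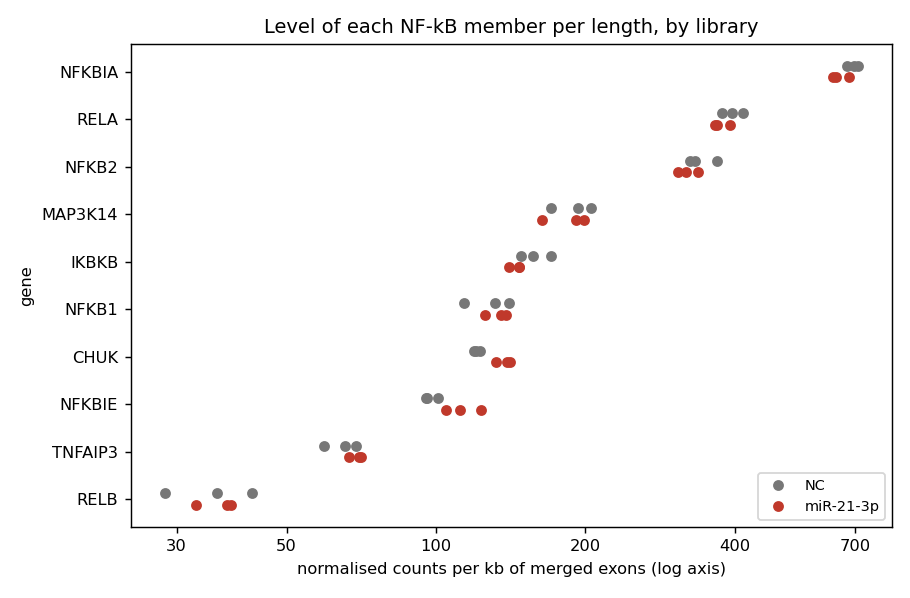
Level of each member in normalised counts per kb of merged exons (log axis), 1 point per library, NC in grey and miR-21-3p mimic in red. NFKBIA lies between 632 and 708 normalised counts per kb and RELB between 28.5 and 42.5, and within each gene the red and grey points lie close together.

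The promoters of several members hold κB sequences, the letters NF-κB dimers bind, and they are shown because these genes are textbook cases of the pathway's feedback. The κB consensus (kappaB consensus, both strands) was searched in RefSeq windows from 250 bases before to 50 bases after each gene start (build GRCh38.p14). Windows were matched for 7 members, all but RELB, NFKBIE and IKBKB. A match was found for 4 of the 7, against 13.25% of all 27305 genes with a window and 11.27% of the 35116 windows. The windows of RELA, MAP3K14 and CHUK held no such letters. Below, 30 bases around 1 match per gene are given 5′ to 3′ on the gene's own strand, with the match in capitals, and for NFKB2 (5 matches, some overlapping) and TNFAIP3 (2 matches) the match closest to a gene start was taken. They lie at chr4:102501300-102501329 (plus strand) for NFKB1, chr10:102395674-102395703 (plus strand) for NFKB2, chr14:35404811-35404840 (minus strand) for NFKBIA and chr6:137867194-137867223 (plus strand) for TNFAIP3.
NFKB1: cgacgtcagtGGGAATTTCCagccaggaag
NFKB2: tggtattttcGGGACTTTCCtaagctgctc
NFKBIA: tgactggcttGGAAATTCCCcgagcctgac
TNFAIP3: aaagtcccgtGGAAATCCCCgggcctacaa
The 4 genes with such a match did not share a direction, NFKB1 and TNFAIP3 having a log2 fold change above 0 and NFKB2 and NFKBIA below 0 (NFKB1 also below 0 without NC replicate 1), and none was called. A match describes letters in a window and says nothing about binding.

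Among the canonical members, IKBKB, the IKKβ kinase that phosphorylates IκB proteins, had 1920, 1670 and 1760 normalised counts in NC replicates 1, 2 and 3 and 1650, 1580 and 1650 in the mimic replicates. Every mimic library lay below every NC library, with NC replicate 2 only just above the mimic replicates and NC replicate 1 the farthest away. The means were 1783 ± 127 (SD, n = 3) in NC and 1627 ± 40.4 (SD, n = 3) with the mimic, a log2 fold change of -0.13 (95% interval -0.25 to -0.0065; limma adjusted p = 0.15). Without NC replicate 2 the difference passed the threshold (log2 fold change -0.18, limma adjusted p = 0.044), without NC replicate 1 the log2 fold change was -0.076, and over all alternatives the adjusted p ran from 0.044 to 0.42. RELA, the subunit that carries the transactivation domain of the canonical dimer, had 2270, 2060 and 2160 normalised counts in NC and 2010, 2140 and 1990 with the mimic. The mimic mean was 5.4% lower, but mimic replicate 2 exceeded NC replicate 2 and the groups overlapped (log2 fold change -0.080, 95% interval -0.19 to 0.034, limma adjusted p = 0.34; -0.044 without NC replicate 1). NFKB1, whose precursor is processed to RELA's usual partner, was measured at 711, 879 and 822 normalised counts in NC and at 865, 785 and 844 with the mimic. The mimic values fell inside the NC range, and the log2 fold change was 0.053 (95% interval -0.12 to 0.22; limma adjusted p = 0.70). Its sign rested on NC replicate 1, the lowest of the 6 libraries, since without it the log2 fold change was -0.033.

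Among the noncanonical members, CHUK, the IKKα kinase of both routes, had 828, 833 and 849 normalised counts in NC and 961, 916 and 976 with the mimic. The NC replicates lay within a narrow band and all 3 mimic replicates lay above it. The means were 837 ± 10.97 (SD, n = 3) and 951 ± 31.2 (SD, n = 3), a log2 fold change of 0.18 (95% interval 0.064 to 0.30; limma adjusted p = 0.051). The call turned on the filter for low values: with genes of a mean of at least 50 tested in place of 10, the limma adjusted p was 0.0496, and over all alternatives it ran from 0.0496 to 0.17. NFKB2, the precursor of the noncanonical subunit, read 1650, 1460 and 1490 normalised counts in NC against 1430, 1510 and 1380 with the mimic. Mimic replicate 2 was above NC replicates 2 and 3, so the groups overlapped (log2 fold change -0.089, 95% interval -0.22 to 0.040, limma adjusted p = 0.35). Without NC replicate 1, the highest library, the log2 fold change was -0.036, and without mimic replicate 3 it was -0.059. RELB, its dimer partner, was low, with 129, 86.5 and 110 normalised counts in NC and 117, 115 and 99.6 with the mimic. All mimic values lay within the NC range, and the interval was the widest of the 10 (log2 fold change 0.042, 95% interval -0.29 to 0.37, limma adjusted p = 0.89), which takes in fold changes from 0.818 to 1.29. Its sign turned without NC replicate 2 (log2 fold change -0.11) and without mimic replicate 1 (-0.00076). By the count tests the log2 fold change of RELB was 0.017 (edgeR with TMM) and 0.018 (DESeq2).

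MAP3K14, the NF-κB-inducing kinase at the head of the noncanonical route, had 1190, 1120 and 987 normalised counts in NC and 1110, 947 and 1150 with the mimic. High and low libraries were found in both groups, and the log2 fold change was -0.041 (95% interval -0.22 to 0.14; limma adjusted p = 0.78). The sign turned without NC replicate 1 (log2 fold change 0.019) and without mimic replicate 2 (0.044). An antisense gene, MAP3K14-AS1, covers 12.3% of its exon bases on the opposite strand in GENCODE 29, and since use of strand in the counting was not given in the sources used here, some of its reads may belong to that gene.

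**Figure D2:**
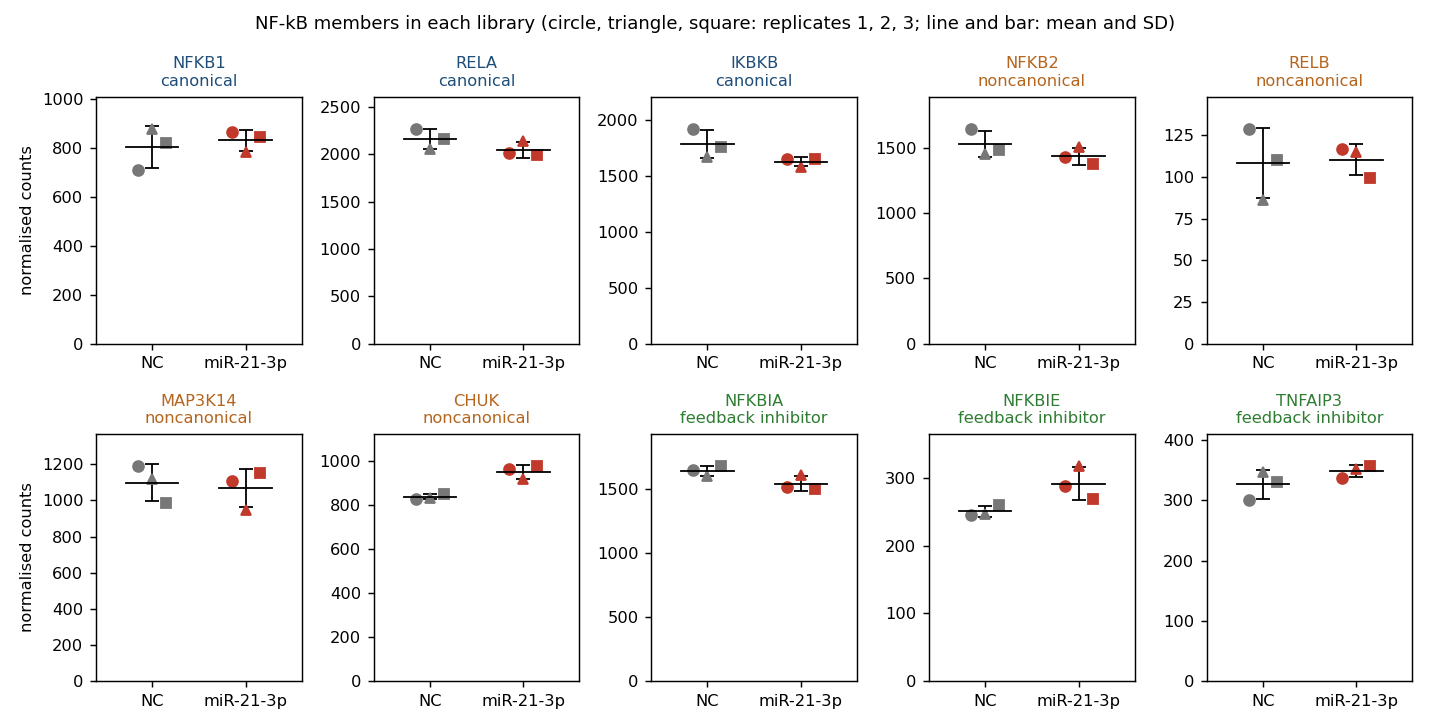
Normalised counts of each member in NC (grey) and miR-21-3p mimic libraries (red), with symbols for the replicate, the mean as a line and the SD (n = 3) as a bar, each axis starting at 0. The groups are apart in CHUK and NFKBIE (mimic higher) and IKBKB (mimic lower) and overlap in the other 7 genes.

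Among the feedback inhibitors, NFKBIE (IκBε), a late-acting inhibitor induced by the factors it holds back, had 246, 247 and 261 normalised counts in NC and 289, 318 and 270 with the mimic. All mimic replicates lay above all NC replicates, replicate 3 of the mimic by the smallest margin. The means were 251 ± 8.39 (SD, n = 3) and 292 ± 24.2 (SD, n = 3), a log2 fold change of 0.21 (95% interval 0.020 to 0.41; limma adjusted p = 0.14). NFKBIA (IκBα), the inhibitor destroyed and remade in each canonical response, had 1650, 1600 and 1680 normalised counts in NC and 1520, 1610 and 1500 with the mimic. Mimic replicate 2 passed NC replicate 2, the other mimic libraries lay below all NC libraries, and the log2 fold change was -0.091 (95% interval -0.20 to 0.018; limma adjusted p = 0.26). TNFAIP3, the ubiquitin-editing enzyme that shuts off signalling upstream of IKK, was found at 301, 348 and 331 normalised counts in NC and at 338, 353 and 357 with the mimic. Only NC replicate 2 reached into the mimic range (log2 fold change 0.099, 95% interval -0.079 to 0.28, limma adjusted p = 0.46). Without NC replicate 1, the lowest library, the log2 fold change was 0.041.

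**Figure D3:**
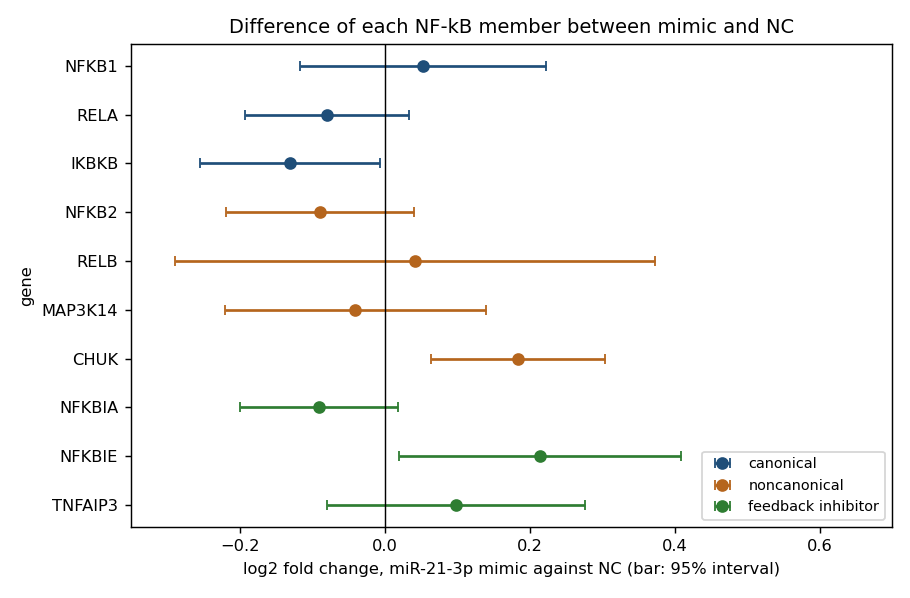
Log2 fold change of each member, miR-21-3p mimic against NC, with its 95% interval from limma, coloured by class. The intervals of IKBKB (below 0) and of CHUK and NFKBIE (above 0) leave out 0 before adjustment, and those of the other 7 genes include it.

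By class, the median log2 fold change was -0.080 over the 3 canonical members, 0.00055 over the 4 noncanonical members and 0.099 over the 3 feedback inhibitors, beside 0.0045 over all genes tested. A positive value was found in 1 of 3 canonical members, 2 of 4 noncanonical members and 2 of 3 feedback inhibitors, and in 0 of the 3 canonical members without NC replicate 1. The noncanonical count was 3 of 4 without NC replicate 1 or mimic replicate 2 and 1 of 4 without NC replicate 2 or mimic replicate 1. The medians moved with single libraries: leaving out NC replicate 1 gave -0.044, 0.097 and 0.041 for the 3 classes in the same order, and leaving out NC replicate 2 gave -0.11, -0.068 and 0.15. The sign of the noncanonical median also turned without NC replicate 3 (-0.024) or mimic replicate 1 (-0.036), by the count tests (edgeR with TMM, -0.013) and with a pseudocount of 5 (-0.00038), so it was not set apart from 0. The classes were set against each other within each library by 4 ratios of normalised counts, which do not depend on library scaling. For NFKB2 to NFKB1 the ratio was 2.32, 1.66 and 1.81 in NC and 1.65, 1.92 and 1.64 with the mimic. The spread among NC libraries was larger than the gap between the group means of 1.93 ± 0.346 and 1.74 ± 0.162 (SD, n = 3; exact two-sided permutation p = 0.50). For RELB to RELA it was 0.0499 ± 0.00747 in NC and 0.0540 ± 0.00409 with the mimic (SD, n = 3; exact permutation p = 0.50), and for MAP3K14 to IKBKB 0.617 ± 0.0550 and 0.656 ± 0.0508 (SD, n = 3; exact permutation p = 0.40). NFKBIA to RELA, an inhibitor set against the subunit it retains, was 0.760 ± 0.0291 in NC and 0.754 ± 0.00196 with the mimic (SD, n = 3; exact permutation p = 1.0). The adjusted p over the 4 ratios was 0.67 or 1.0, and the smallest exact p that 3 libraries against 3 can give is 0.10, so no ratio could have passed. Log2 differences of 3 ratios came close to 0 with 1 library left out: NFKB2 to NFKB1 went from -0.14 to -0.0023 without NC replicate 1, RELB to RELA from 0.12 to 0.0027 without NC replicate 2, and MAP3K14 to IKBKB from 0.090 to 0.023 without NC replicate 3.

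Of 8 further subunits, IκB proteins and IKK components, 0 were called by limma, edgeR or DESeq2, and 0 had an unadjusted limma p under 0.05. Over all genes tested, limma called 10.8%, and 28.5% had an unadjusted limma p under 0.05. The groups did not overlap in 2 of the 8, against 31.3% of all genes tested, and both lay lower with the mimic: BCL3, an atypical IκB protein and coactivator (308, 272 and 281 against 266, 255 and 242 normalised counts), and NFKBIZ, the IκBζ coactivator of KC inflammatory genes (1010, 1020 and 1100 against 982, 953 and 992). REL, the remaining Rel-family activator, lay between 627 and 698 normalised counts in all 6 libraries (log2 fold change -0.017, 95% interval -0.16 to 0.12), and its sign turned to 0.026 without NC replicate 3. Another annotated transcript covers 43.3% of REL's exon bases on the same strand, and IKBKG, the scaffold of the IKK complex, has a near-identical pseudogene, so reads of both genes may be shared. IKBKG had 97.9, 113 and 90.8 normalised counts in NC and 121, 108 and 99.6 with the mimic, and these overlapped (log2 fold change 0.12, 95% interval -0.17 to 0.41; from 0.050 without mimic replicate 1 and 0.053 without NC replicate 3 to 0.21 without NC replicate 2 and 0.19 without mimic replicate 3).

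Upstream of the members, 1 of 22 genes of the canonical route rose and 1 fell. Of 10 tested noncanonical genes, 0 rose and 1 fell. The shares called were 9.1% and 10%, close to the 10.8% of all genes tested. At an unadjusted limma p under 0.05 there were 11 of 22 and 4 of 10, against 28.5% of all genes tested. The groups did not overlap in 9 of 22 and 5 of 10, against 31.3% of all genes tested. A negative log2 fold change was found in 16 of 22 and 6 of 10. The list medians were -0.055 and -0.062 on the log2 scale, the latter -0.030 without mimic replicate 3. TNFSF13B, the ligand BAFF that drives the noncanonical route through its receptor on B cells, had 117, 99.9 and 104 normalised counts in NC and 64.2, 63.5 and 63.7 with the mimic. The mimic libraries were nearly equal and far below NC (log2 fold change -0.73, SE 0.13, limma adjusted p = 0.0086), and TNFSF13B was called with any of the 6 libraries left out. TLR3, the receptor for double-stranded RNA, had 1050, 990 and 1140 normalised counts in NC and 738, 878 and 736 with the mimic. It fell by 0.44 on the log2 scale (SE 0.078, limma adjusted p = 0.0086), and missed the threshold without NC replicate 3 (adjusted p = 0.055) or mimic replicate 1 (0.052). IRAK1, a kinase that relays Toll-like and interleukin-1 receptor signals, rose from 4090, 4170 and 3870 normalised counts to 4620, 4430 and 4780 (log2 fold change 0.19, SE 0.048, limma adjusted p = 0.027). Its call was lost without NC replicate 1, NC replicate 3, mimic replicate 1 or mimic replicate 3, at adjusted p values of 0.058, 0.14, 0.11 and 0.11.

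Of 11 tested negative regulators outside the set, 2 fell and 0 rose, against 4.67% and 6.15% of all genes tested. The list's median log2 fold change was -0.037, which was -0.0067 without NC replicate 3, -0.010 without mimic replicate 3 and -0.058 without NC replicate 2. CYLD, a deubiquitinase that removes chains needed for IKK activation, had 2450, 2250 and 2420 normalised counts in NC and 2080, 2100 and 1720 with the mimic. The groups were apart, mimic replicate 3 lying lowest (log2 fold change -0.28, SE 0.072, limma adjusted p = 0.031). TAX1BP1, an adaptor that brings TNFAIP3 to its substrates, fell from 3690, 3820 and 3900 to 3270, 3430 and 3170 normalised counts (log2 fold change -0.21, SE 0.047, limma adjusted p = 0.018). Both calls were lost without NC replicate 3 (adjusted p = 0.12 for CYLD and 0.096 for TAX1BP1), mimic replicate 1 (0.068 and 0.085) or mimic replicate 3 (0.097 and 0.077), and that of CYLD also without NC replicate 1 (0.10). Without mimic replicate 3 the log2 fold change of CYLD was -0.18. TNFAIP3 itself, described among the members, was not called.

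In the machinery that destroys IκB proteins, 13 of 27 tested proteasome genes rose and 0 fell, against 6.15% of all genes tested that rose, and all 27 had a positive log2 fold change (median 0.20), also under each alternative. PSMD1, a subunit of the proteasome's regulatory cap, rose from 1090, 1270 and 1080 normalised counts to 1540, 1330 and 1620 (log2 fold change 0.38, SE 0.080, limma adjusted p = 0.015). PSMC4, an ATPase of the same cap, rose from 878, 1030 and 858 to 1170, 1070 and 1270 normalised counts (log2 fold change 0.34, SE 0.080, limma adjusted p = 0.020). In both genes replicate 2 was the highest of NC and the lowest of the mimic, and in neither did the groups overlap. The count of 13 depended on single libraries: it was 19 without NC replicate 2, 15 without mimic replicate 2, and 0 without NC replicate 1, NC replicate 3, mimic replicate 1 or mimic replicate 3. In those last 4 fits the genes called higher over the whole table also went from 909 to 315, 98, 147 and 203. The log2 fold change of PSMD1 was then 0.35, 0.34, 0.36 and 0.32 (limma adjusted p = 0.055, 0.078, 0.073 and 0.065) and that of PSMC4 0.31, 0.30, 0.34 and 0.28 (limma adjusted p = 0.074, 0.10, 0.084 and 0.087). Of 5 genes of the SCF ligase that tags IκB, 1 rose: CUL1, its scaffold, went from 1370, 1400 and 1360 normalised counts to 1570, 1540 and 1600 (log2 fold change 0.19, SE 0.048, limma adjusted p = 0.028), and without the same 4 libraries its adjusted p was 0.067, 0.12, 0.11 and 0.10.

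Of 20 tested target genes of NF-κB, 3 rose and 2 fell (25% called), against 6.15% and 4.67% of all genes tested (10.8% called). The median log2 fold change was 0.061, and 15 more on the list were not analysed here. The median was 0.015 over the 18 target genes with a mean of at least 50. That filter left out the cytokine gene IL1A and the chemokine gene CCL2. Both were higher with the mimic with no overlap (log2 fold change 0.65 and 0.36, limma adjusted p = 0.057 and 0.16). Without mimic replicate 2 the median was -0.0061, the only alternative in which it was negative. Of the 20 genes, 11 had a positive and 9 a negative log2 fold change, so the list as a whole had no settled direction. IL1B, the interleukin-1β cytokine, had 288, 330 and 305 normalised counts in NC and 439, 452 and 459 with the mimic. All 3 mimic libraries were well above NC (log2 fold change 0.55, SE 0.078, limma adjusted p = 0.0035), and IL1B was called with any of the 6 libraries left out. SAA1, an acute-phase protein, rose from 99.0, 146 and 90.8 to 147, 186 and 165 normalised counts, the mimic minimum just above the NC maximum (log2 fold change 0.59, SE 0.17, limma adjusted p = 0.042). IER3, an early response gene that modulates cell survival, rose from 664, 723 and 655 to 834, 838 and 807 normalised counts (log2 fold change 0.28, SE 0.062, limma adjusted p = 0.017). In the other direction, TNFAIP2, a gene first found as induced by TNF, fell from 19200, 15900 and 17700 to 13100, 14500 and 12100 normalised counts (log2 fold change -0.41, SE 0.074, limma adjusted p = 0.0087). LCN2, the iron-trapping antimicrobial lipocalin, fell from 1070, 930 and 1030 to 803, 829 and 769 normalised counts (log2 fold change -0.33, SE 0.065, limma adjusted p = 0.011). IL1B and LCN2, both inflammatory effectors of KCs, thus moved in opposite directions. The tested cytokine and chemokine genes of the list, IL1A, IL1B, CCL2, CXCL1 and CXCL8, all had a positive log2 fold change, but of these IL1B alone was called. CXCL1 had a log2 fold change of 0.41, and its groups overlapped (limma adjusted p = 0.10).

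Among these targets, SAA1 was called in 1 of 6 fits that left out a library and in none without NC replicate 1, NC replicate 3 or any mimic replicate (adjusted p from 0.085 to 0.17), nor with no filter on low values (0.052). IER3 missed the threshold without NC replicate 1 (0.052), NC replicate 3 (0.090), mimic replicate 1 (0.081) or mimic replicate 3 (0.0504). TNFAIP2 missed it without NC replicate 3 (0.053), and LCN2 without NC replicate 3 (0.067), mimic replicate 1 (0.056) or mimic replicate 3 (0.0502). Of the targets KCs are best known for, CXCL8, the neutrophil chemokine, had 49.0, 79.3 and 61.5 normalised counts in NC and 83.6, 67.6 and 87.0 with the mimic. NC replicate 2 lay inside the mimic range, and the interval was wide (log2 fold change 0.34, 95% interval -0.061 to 0.74, limma adjusted p = 0.25). It was 0.17 without NC replicate 1 and 0.52 without NC replicate 2 (limma adjusted p = 0.61 and 0.061). ICAM1, the leukocyte adhesion molecule, had 513, 519 and 493 normalised counts in NC and 564, 530 and 500 with the mimic, which overlapped (log2 fold change 0.062, 95% interval -0.089 to 0.21, limma adjusted p = 0.60; 0.018 without mimic replicate 1, 0.040 without NC replicate 3 and 0.11 without mimic replicate 3).

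**Figure D4:**
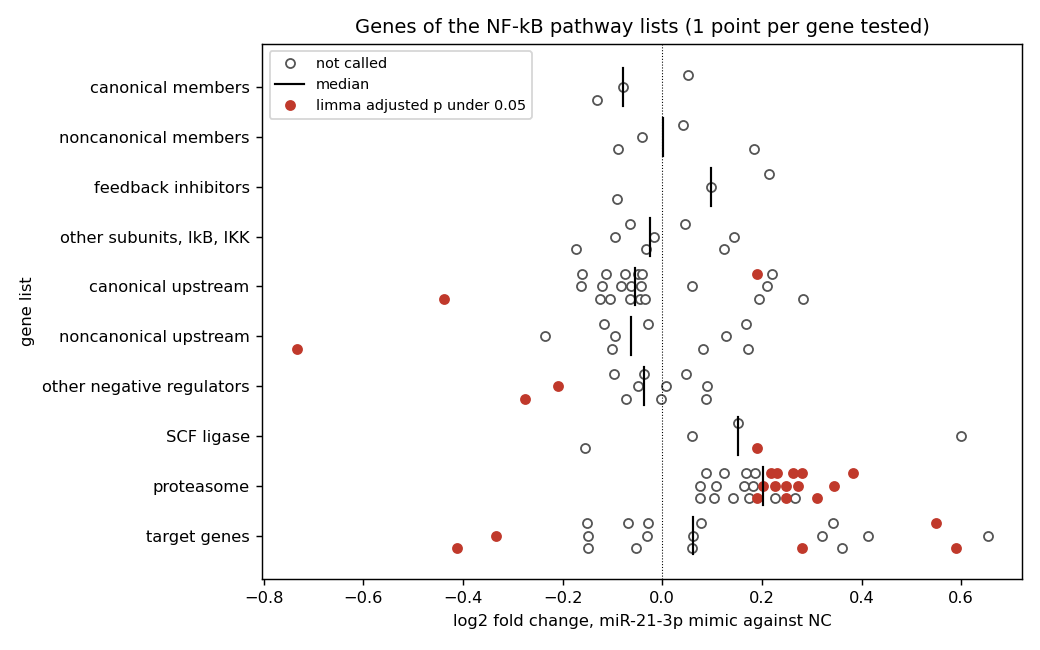
Log2 fold change, miR-21-3p mimic against NC, of each tested gene of the members' classes and of the other NF-κB pathway lists, filled red where limma's adjusted p was under 0.05, with the list median as a line. The 3 member classes hold no red point, all 27 proteasome genes lie right of 0, and the other lists lie on both sides.

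Over the 6 pathway lists without the proteasome, 5 of 76 tested genes rose and 6 fell, beside 6.15% and 4.67% of all genes tested. The total of 11 was 6 without NC replicate 1, 21 without NC replicate 2, 2 without NC replicate 3, 3 without mimic replicate 1 and 4 without mimic replicate 3. Of 16 markers of other cell types, 4 were in the table and 12 were not analysed here. Those of endothelium, VWF and CDH5, summed to 1197, 1087 and 1119 normalised counts in NC and 877, 925 and 883 with the mimic. CDH5 alone carried this fall and was called lower (477, 286 and 393 against 165, 178 and 122; log2 fold change -1.30, limma adjusted p = 0.0026), whereas VWF, the more abundant, overlapped between groups (720, 801 and 726 against 712, 747 and 761; log2 fold change -0.016, limma adjusted p = 0.89). COL1A1, the fibroblast marker, had 560, 390 and 478 normalised counts in NC and 372, 378 and 364 with the mimic. It lay lower with no overlap (log2 fold change -0.34, limma adjusted p = 0.063), and DESeq2 called it lower. Its log2 fold change was -0.22 without NC replicate 1 and -0.48, then called by limma, without NC replicate 2, while PMEL, the melanocyte marker, lay between 120 and 155. Their part in the values of the NF-κB genes was not tested.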

How the data were processed

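PolyA RNA of 6 HaCaT cultures, 3 per mimic, was sequenced from stranded libraries. The submitters' processing notes name bcl2fastq 2.18.12, cutadapt 1.15, TopHat2 2.1.1, featureCounts of Subread 1.5.2 and DESeq2; the genome build and annotation were not given in the sources used here. The deposited signal is the read count per gene that the authors divided by a size factor per library and gave to 3 significant digits, and 5278 of 22152 genes were at 0 in all libraries.

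Of the values under 100, 100% came out as whole reads in every library (within 0.1 of a whole number) when divided by the value of 1 read, 0.897 to 1.04; rounding to 3 digits adds up to 0.5% to larger values. The design planned edgeR's quasi-likelihood test on raw counts, but the table held scaled counts. For this reason limma 3.58.1 (trend) was run on log2(value + 1) for genes with a mean of at least 10. Benjamini-Hochberg adjustment covered all 14782 genes tested. Fold changes are on that scale, and for low genes they depend on the pseudocount. With pseudocounts of 0.5 and 5, TNFSF13B had log2 fold changes of -0.74 and -0.70 and SAA1 of 0.59 and 0.57. By DESeq2 they were -0.75 and 0.57. Intervals are 95% limma intervals without adjustment. On the recovered reads edgeR 4.0.16 called 880 genes higher and 760 lower, against 909 and 691 by limma. DESeq2 1.42.0, other scalings, filters and pseudocounts, a replicate block and leaving out each library were alternatives. Of the functions, only the limma fit was tested on simulated data, in which no low gene was given a change. Replicates differed by more than sampling noise (chi-square per gene 1.82 to 3.20).

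All 10 members are named. From each other list at most 2 called genes per direction (4 for target genes) are named, those with the largest fold change. REL, IKBKG, CXCL8 and ICAM1 are named in any case. BCL3, NFKBIZ, BTRC, IL1A, CCL2 and CXCL1 were named after their values were seen. So were the marker genes CDH5, VWF, COL1A1, PMEL, KRT5, KRT6A and ITGB4. Members and lists were chosen with earlier results of these data known. Symbols were matched through Ensembl IDs, then names, to current and older symbols; exon lengths and overlaps come from GENCODE 29, promoter windows from RefSeq.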

Additional observations from a re-analysis of the deposited data

How the results depend on the processing

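Across 9 other settings, 89 of 90 member fold changes kept their direction and their side of the threshold. The exception was CHUK (log2 fold change 0.18), called with the filter at a mean of 50, an alternative chosen after seeing the data, as were edgeR with TMM and both other pseudocounts; fewer genes were then tested, and the number of members called went from 0 to 1. Leaving out 1 library at a time gave 0 to 1 members called, 98 to 1628 genes called higher, 81 to 1333 called lower, 2 to 21 genes of the pathway lists and 0 to 19 proteasome genes called higher; the cause was not tested. In these fits, which rest on 5 libraries, 54 of 60 member fold changes kept their direction and side. The log2 fold change ran from -0.033 to 0.12 for NFKB1, from -0.18 to -0.076 for IKBKB, which was called without NC replicate 2, from -0.11 to 0.17 for RELB, from -0.12 to 0.044 for MAP3K14 and from -0.051 to 0.026 for REL. It ran from -0.11 to -0.044 for RELA, from -0.12 to -0.036 for NFKB2, from 0.17 to 0.21 for CHUK, from -0.12 to -0.071 for NFKBIA, from 0.15 to 0.27 for NFKBIE and from 0.041 to 0.15 for TNFAIP3. The log2 difference of the NFKBIA to RELA ratio ran from -0.044 to 0.0052, that of NFKB2 to NFKB1 from -0.24 to -0.0023, that of RELB to RELA from 0.0027 to 0.22 and that of MAP3K14 to IKBKB from 0.023 to 0.15.

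No shared deviation was seen in same-numbered libraries: their deviations from the group means had correlations of -0.0059, -0.20 and -0.17. Those of differently numbered libraries ran from -0.12 to 0.27. With 3 libraries per group these values cannot show whether the samples were handled as pairs. With the replicate block, 685 genes were called higher and 517 lower, 0 members were called, and IRAK1 (adjusted p = 0.064) and CUL1 (0.076) missed the threshold among the named genes. RELB, IKBKG, TNFSF13B, SAA1 and CXCL8, which have low counts, had standard errors between 0.13 and 0.19 on the log2 scale; how much of this is counting error was not tested.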
